A study of Sus scrofa with 12 samples.

Results

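Porcine induced pluripotent stem cells (iPSCs) at day 12 of endothelial induction (IEC12) were compared with cells at day 2 of the same induction (IEC2), which gives the net change over the 10 days between them. The comparison takes the 3 IEC12 and the 3 IEC2 libraries, 6 of the 12 RNA sequencing libraries analysed here. Its members are the genes that reached an FPKM of 1 or more in no fewer than 3 of the 6 libraries, 9657 of the 19681 pig genes in the tables, of which 8108 have a gene symbol. FPKM counts sequenced fragments relative to the length of the transcript and the size of the library, so it can be compared between genes as a level per length. Differences are given on the scale of log2(FPKM + 1), IEC12 minus IEC2, a scale on which the change of a gene with low FPKM comes out smaller than its fold.

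Both groups came from porcine iPSCs plated on Matrigel. IEC2 cells had been kept until day 2 in a differentiation medium with CHIR99021, an inhibitor of the kinase GSK3 that turns on WNT signalling. IEC12 cells went through the same step, were then given BMP4, FGF2 and VEGF until day 4, and were kept until day 12 in the endothelial growth medium EGM-2 with added VEGF. The 3 IEC4 libraries, made at day 4, and the 3 libraries of the porcine endothelial cell line AOC are given beside the comparison as levels, with no test. Day and medium changed together and cannot be told apart. The IEC12 cells had not been sorted for CD31, so the libraries hold every cell of the culture, and in such bulk samples fewer cells of a type cannot be told apart from less RNA per cell. The study's methods call the replicates A, B and C biological repeats, without saying whether each was a separate culture from plating onwards, and the p-values measure the spread between these libraries.

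Endothelial cells line blood vessels. They arise from mesoderm, under WNT and BMP signals that form the mesoderm and VEGF that acts through its receptor KDR, and the transcription factors ETV2, ERG and FLI1 take part in turning on genes such as PECAM1 (CD31), CDH5 (VE-cadherin), TEK and TIE1. Loss of the pluripotency genes and a passage through a primitive streak state come before that step.

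Among the IEC12 libraries, replicate A stood apart. The 12 protein genes of mitochondrial DNA with a row took 15% of its FPKM sum, 9.78% in replicate B and 7.77% in replicate C, against 1.95 to 2.19% in IEC2. On the log2 scale, 1548 of the 9657 genes lay more than 1 apart between IEC12 replicates A and C, 784 between A and B, and 142 between B and C. In IEC2 too the pairs with replicate A lay further apart, with 488 (A and B) and 578 (A and C) such genes, and 231 between B and C. The FPKM sum was 335976 to 352845 in IEC2 and 387726 to 457194 in IEC12, and 8763 to 9484 genes reached an FPKM of 1 in each of the 6 libraries. The number of fragments behind each library is not given in the sources used here.

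Stress and immediate early genes (12 of 16 tested) and genes of glycolysis and the hypoxia response (17 of 22) were mostly lower at day 12 than at day 2. The transcripts of mitochondrial DNA (12 of 12) and 9 of 14 tested genes of the BMP and TGF-beta response were higher. Tested with limma, 4241 genes (43.9% of those tested) differed at a Benjamini-Hochberg adjusted p below 0.05, 2392 of them higher at day 12 (24.8%) and 1849 lower (19.1%). The median difference over all genes tested was 0.04. The ranges of the 3 libraries did not overlap between the groups for 5409 genes (56.0%). Of the genes called, 1147 were higher and 1023 lower by more than 1 on the log2 scale. By the limits the study used for its own gene selection (p and adjusted p below 0.001 and a log2 difference above 3), 62 genes were higher (0.642%) and 61 lower (0.632%).

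The size of these counts depended on single libraries, on the pseudocount and on the scaling. Without IEC12 replicate B, 2695 genes passed the adjusted p, and without IEC12 replicate A it was 4318, with 2579 higher and 1739 lower. By the study's limits, 69 genes remained without IEC12 replicate B, 71 without IEC2 replicate B and 76 without IEC2 replicate C, in place of 123. With a pseudocount of 0.1 in place of 1, 259 genes were past these limits, 160 higher and 99 lower. When the libraries were scaled to equal FPKM totals, the median difference over all genes moved from 0.04 to -0.20 and the split turned from 2392 higher and 1849 lower to 1459 higher and 2433 lower. With the mitochondrial genes left out before that scaling, the median was -0.09 and the split 1822 higher and 2103 lower.

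**Figure D1:**
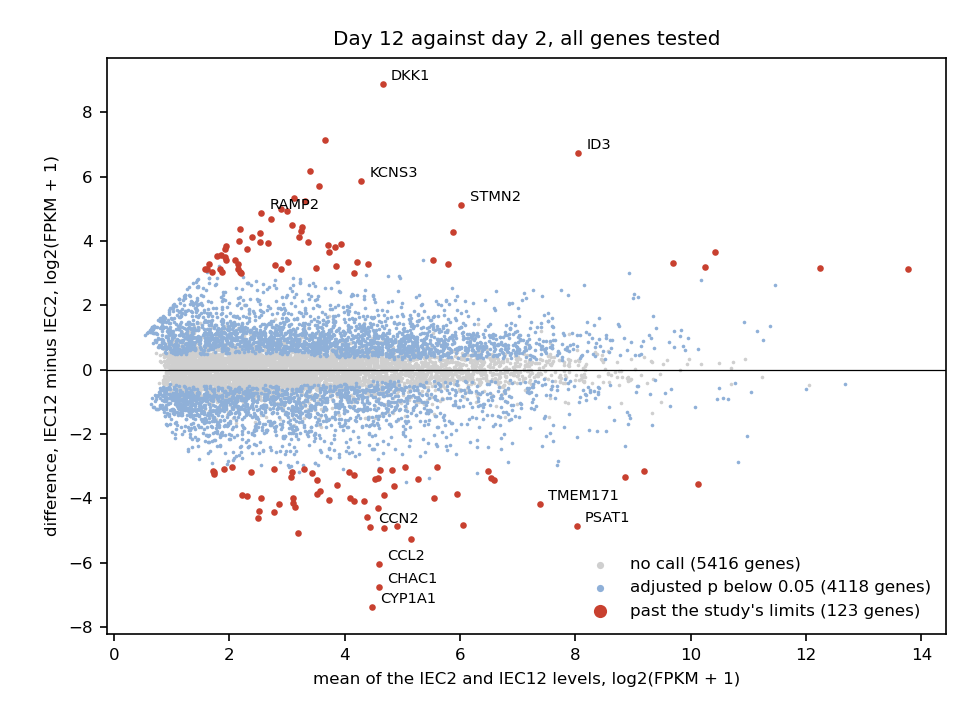
Difference between IEC12 and IEC2 (vertical axis, log2(FPKM + 1)) against the mean level of the 2 groups (horizontal axis, log2(FPKM + 1)) for the 9657 genes tested, 1 point per gene. Red points are the 123 genes past the study's limits, blue points the other genes with an adjusted p below 0.05. DKK1 lies highest at 8.89 and CYP1A1 lowest at -7.39.

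The largest rise was that of DKK1 (chromosome 14, 97487854 to 97490118, Sscrofa11.1), which encodes a secreted antagonist of WNT signalling that WNT itself can induce. Its FPKM was 0.21, 0.17 and 0.076 in IEC2 replicates A, B and C, and 682, 552 and 426 in IEC12. The groups lay far apart, with a log2 difference of 8.89 (SE 0.19, limma, adjusted p = 1.6e-06). At day 4 DKK1 was at 2.15 to 11.4, and in AOC it was listed at 0 in each library.

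ID3 (chromosome 6, 81422541 to 81424169), an inhibitor of basic helix-loop-helix factors and a direct target of BMP signals, was at 34.8, 15.7 and 24.9 in IEC2 and at 2716, 2678 and 2577 in IEC12. Its mean FPKM thus rose 106-fold, with a log2 difference of 6.74 (SE 0.26, adjusted p = 1.6e-05). Its relative ID2 had an FPKM of 0.66, 0.98 and 0.73 in IEC2 and of 38.4, 41.8 and 38.4 in IEC12, a difference of 4.51 (SE 0.16, adjusted p = 1.5e-05). All 3 IEC12 libraries lay above all 3 IEC2 libraries for both genes, which the rule for the leading genes required. Over all genes tested, 56.0% had no overlap in either direction.

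STMN2 (chromosome 4, 56952968 to 57006744) encodes a microtubule regulator known from neurons. It was at 13.0, 9.68 and 7.67 in IEC2, at 8.15 to 15.1 in IEC4, and at 375, 397 and 370 in IEC12 (difference 5.13, SE 0.18, adjusted p = 1.5e-05). The day 4 range overlapped that of day 2. The potassium channel subunit gene KCNS3 had 1.98, 1.34 and 1.32 in IEC2 and 110.5, 157.5 and 176 in IEC12, a difference of 5.85 (SE 0.21, adjusted p = 1.5e-05). CDX4, a homeobox gene of the posterior embryo, was at 0, 0.49 and 0.91 in IEC2 and at 39.3, 44.1 and 44.3 in IEC12, with 6.94 to 24.1 at day 4 and 0 listed in all AOC libraries. RAMP2, a partner of the receptor CALCRL for adrenomedullin, had 0, 0.25 and 0 in IEC2, 31.0, 38.4 and 23.5 in IEC12, and 42.4 to 66.8 in AOC. MYL10, a myosin light chain gene, was listed at 0 in all IEC2, IEC4 and AOC libraries and reached 15.8, 21.6 and 21.8 in IEC12, and it passed the test at an adjusted p of 2.3e-05.

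Also among the 15 largest rises of genes with a symbol were LRRC18, PRSS16, LIX1, SWAP70, the WNT and BMP antagonist gene SOSTDC1, and SLIT2, a guidance cue. Their differences ran from 4.32 (SLIT2) to 5.70 (LRRC18). Of the 62 genes that rose past the study's limits, 34 were under an FPKM of 1 in all IEC2 libraries, and their median level went from 0.593 to 37.5. For 33 of the 62, all 3 AOC libraries were under 1 as well, and for 8 the lowest AOC library reached at least the lowest IEC12 library. RAMP2 and SWAP70 were among those 8. Genes chosen for a rise to day 12 favour a low count here, and the share over all genes was not taken. The IEC4 mean lay between the IEC2 and IEC12 means for 55 of the 62.

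**Figure D2:**
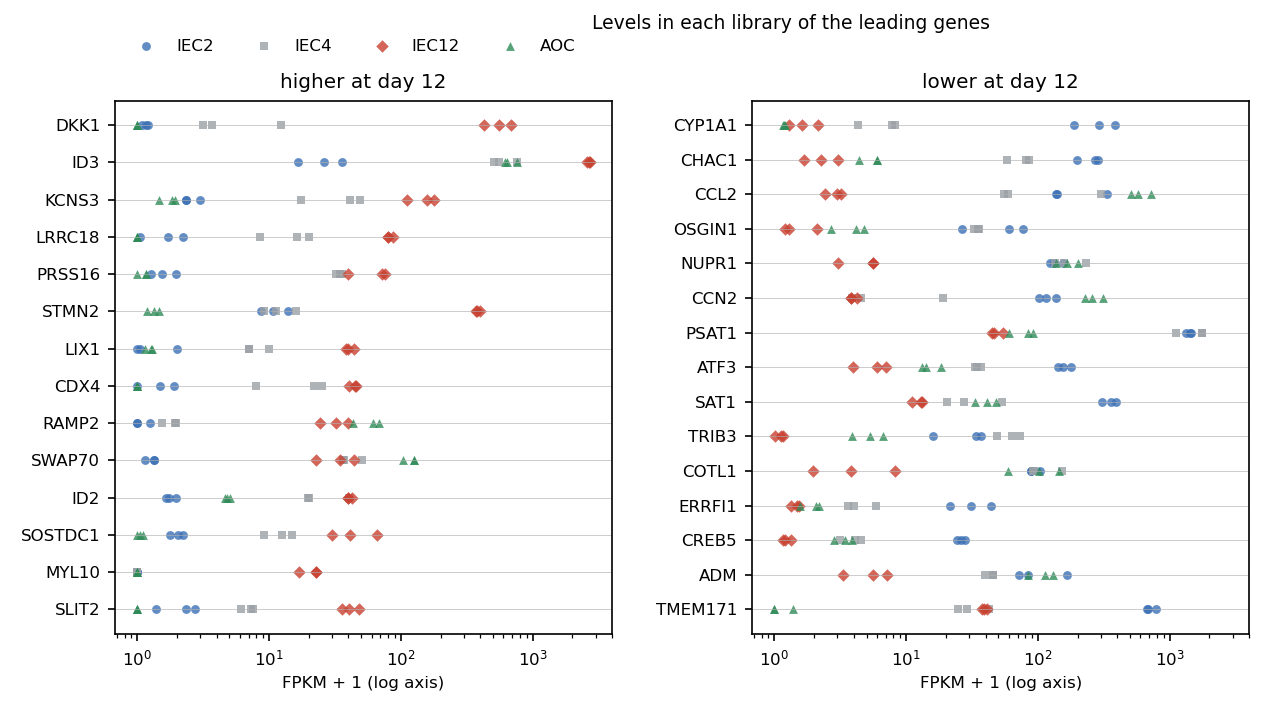
FPKM + 1 (log axis) in each library for genes among the 15 largest rises (left) and for the 15 largest falls (right), ordered by log2 difference. Blue circles are IEC2, grey squares IEC4, red diamonds IEC12 and green triangles AOC, 3 points per group. Red and blue points do not overlap in any row, since only genes without such overlap were taken. AOC lies near IEC12 for RAMP2 and near IEC2 for CCL2 and NUPR1.

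CYP1A1 (chromosome 7, 58802887 to 58809155) fell furthest. It encodes a cytochrome P450 that the aryl hydrocarbon receptor induces. Its FPKM was 188, 288 and 385 in IEC2 and 0.29, 1.13 and 0.63 in IEC12, a difference of -7.39 (SE 0.30, limma, adjusted p = 1.7e-05). The day 4 libraries were at 3.31 to 7.22, far nearer to day 12 than to day 2. CHAC1 (chromosome 1, 130360510 to 130363332), which degrades glutathione and is a target of the amino acid response, was at 195, 282 and 268 in IEC2, at 57.3 to 84.4 in IEC4 and at 0.69, 1.25 and 2.04 in IEC12. The chemokine gene CCL2 was at 335, 136 and 138 in IEC2 and at 1.97, 1.40 and 2.18 in IEC12. AOC held CCL2 at 504 to 719, above both stages.

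PSAT1, an enzyme of serine synthesis, was abundant at day 2, at 1328, 1419 and 1440, and had 43.5, 45.2 and 53.6 at day 12, a 29.4-fold lower mean FPKM (difference -4.86, SE 0.12, adjusted p = 3.4e-06). At day 4 its level was 1110 to 1769, a range that takes in that of day 2. CCN2, a matricellular growth factor gene induced by TGF-beta and YAP, was at 137, 102 and 114 in IEC2 and at 2.78, 2.84 and 3.22 in IEC12 (difference -4.90, SE 0.15, adjusted p = 8.5e-06), and AOC had 227 to 310. TMEM171, a membrane protein gene, was at 780, 670 and 689 in IEC2, at 23.8 to 41.3 in IEC4 and at 38.1, 40.1 and 36.9 in IEC12, while AOC was at or under 0.39. The remaining genes of the 15 largest falls were OSGIN1, NUPR1, ATF3, SAT1, TRIB3, COTL1, ERRFI1, CREB5 and ADM, with differences from -5.07 to -4.29. For COTL1 the IEC12 libraries themselves were spread, at 0.95, 2.83 and 7.20.

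Falls past the study's limits went from a median level of 71.1 to 3.28 over the 61 genes. At day 12, 13 of the 61 were under an FPKM of 1 in all 3 libraries. The lowest AOC library was at or above the lowest IEC12 library for 41 of them, and 17 were under 1 in all AOC libraries. Genes chosen for a fall to day 12 favour a high count of the first kind, and the share over all genes was not taken. The IEC4 mean lay between the other stages for 49.

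The endothelial list was the one that the label of the samples points to. Of its 46 genes, 37 have a row, and 9 (VWF, TAL1, SOX7, SOX17, CLDN5, EGFL7, APLNR, ICAM2 and THBD) have none under that symbol and get no value. In AOC, 23 of the 37 were at an FPKM of at least 1 in all 3 libraries. In IEC2 it was 6, in IEC4 5 and in IEC12 3. The summed FPKM of the list was 1020 to 1270 in AOC, 58.7 to 70.8 in IEC2 and 44.2 to 56.4 in IEC12. PECAM1 was at 0.02, 0.061 and 0.11 in IEC12 and at 91.7 to 131 in AOC. CDH5 was listed at 0 in all IEC libraries and reached 103 to 137 in AOC.

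The other defining genes were low at day 12 too. TEK, TIE1, ERG, CD34 and FLT1 did not exceed 0.031 in any IEC12 library, FLI1 did not exceed 0.046, NOS3 did not exceed 0.42, and ETV2 was at 0.12 to 0.26. ERG was at 18.7 to 29.7 and CD34 at 18.2 to 34.1 in AOC. In these libraries of whole, unsorted cultures, the defining markers of the cell type in the label were thus at or near 0, and the group is called here by its day. The libraries give no level for any single cell, so they do not show whether a small share of the culture carried these markers. KDR, the main VEGF receptor, fell from 2.45, 3.99 and 2.42 in IEC2 to 0.037, 0 and 0 in IEC12 (difference -1.94, SE 0.20, limma, adjusted p = 0.00042). It was low in AOC too, at 1.31 to 1.46.

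Of the 37 genes, 8 were tested, and among those RAMP2 rose and ESM1, KDR, S1PR1 and CALCRL fell, which makes 1 higher and 4 lower. The median of the 8 was -0.91, beside 0.04 over all genes tested. Over all 37 genes with a row it was 0.0, as over all 19681 genes. KDR and S1PR1 were under an FPKM of 1 in all IEC12 libraries, so they entered the test through IEC2 alone. ESM1, a secreted proteoglycan gene of activated endothelium, went from 29.3, 38.2 and 31.4 to 0.24, 0.43 and 2.88 (difference -4.15, SE 0.42, adjusted p = 0.00045), and AOC had 153 to 193. CALCRL, the receptor that RAMP2 serves, was at 15.2, 13.0 and 14.5 in IEC2 and at 7.98, 6.58 and 6.47 in IEC12. Its ligand gene ADM fell from 165, 70.2 and 83.8 to 2.34, 4.56 and 6.18 (difference -4.29, SE 0.39, adjusted p = 0.00028). ENG, a TGF-beta co-receptor, had 1.58, 3.58 and 2.46 in IEC2 and 0.28, 0.65 and 2.02 in IEC12, overlapping ranges with no call (adjusted p = 0.082).

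**Figure D3:**
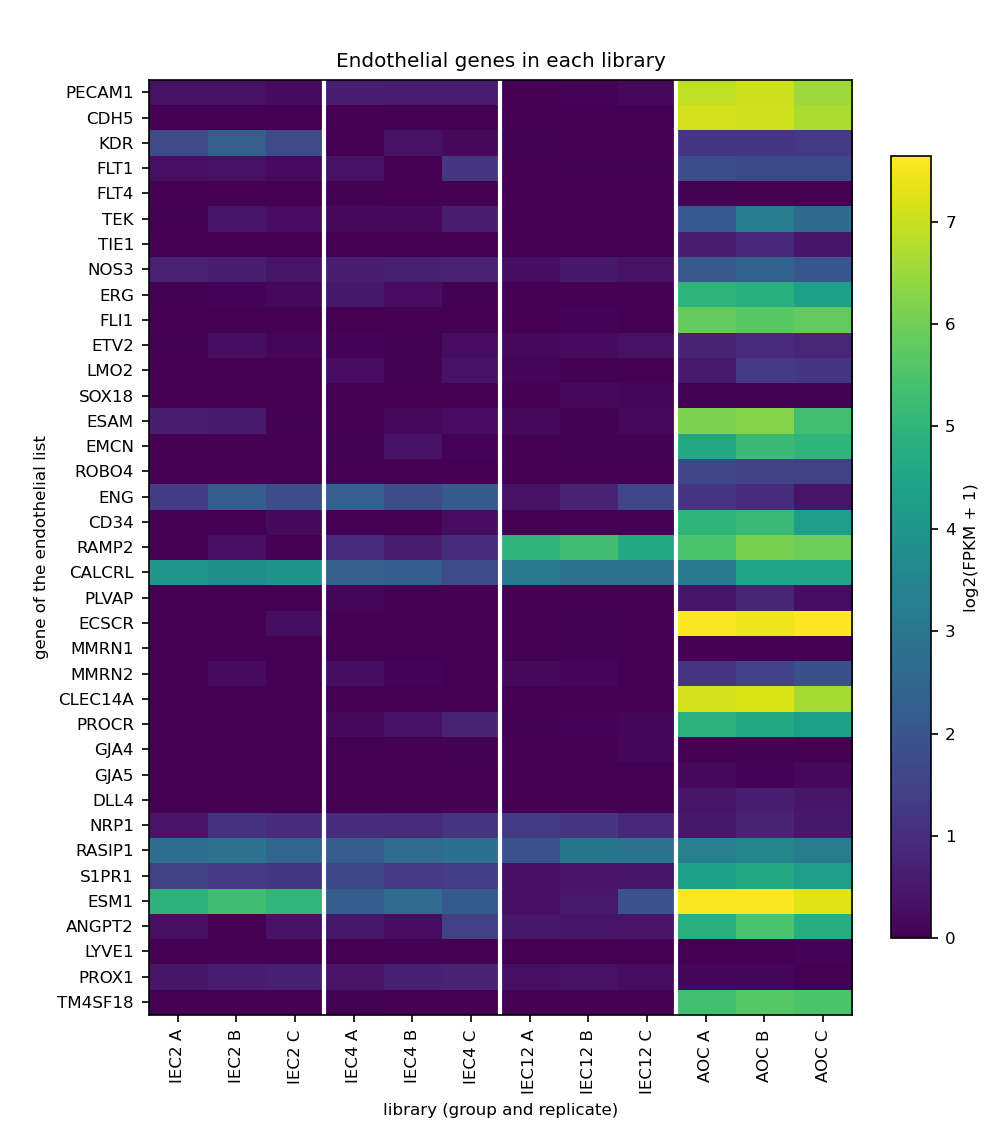
Level of the 37 genes of the endothelial list (rows) in each of the 12 libraries (columns), as log2(FPKM + 1) from dark (0) to bright. The AOC columns are bright for PECAM1, CDH5, ECSCR, CLEC14A and others, where the IEC12 columns are dark, and RAMP2 is the row in which IEC12 is bright and IEC2 is dark.

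To see which lineage the day 12 cells resembled, 14 further lists of cell type markers were read in the same way. No list had more than 50.0% of its genes at an FPKM of at least 1 in all 3 IEC12 libraries, a level that 42.2% of all 19681 genes reached. Shares over 40% were found for the lists of intermediate mesoderm and kidney (5 of 10 genes) and of fibroblasts and mesenchyme (11 of 25). The counts of called genes in each list below stand against 24.8% higher and 19.1% lower over all genes tested. Medians below are over tested genes unless stated. Over all genes with a row, those of the lineage lists ran from -0.06 (fibroblasts and mesenchyme) to 0.11 (pluripotency). A gene under an FPKM of 1 in all IEC2 libraries could enter the test only through IEC12, and the reverse. For the neural, mural, cardiac and epithelial lists, defining markers that were under an FPKM of 1 at day 12 are given below. Such values are not given for every list, among them those of intermediate mesoderm and kidney and of skeletal muscle. The day 12 cells are given no cell type name.

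Of 8 tested genes of the neural and neural crest list, 5 were higher and 2 lower (24.8% and 19.1% over all genes), with a median of 1.12. Over the 27 genes with a row the median was 0.01. Beside STMN2, the rises were NEFL, a neurofilament (0.0075, 0.19 and 0.12 in IEC2, 7.96, 12.1 and 15.9 in IEC12, difference 3.50, SE 0.26, adjusted p = 0.00013), STMN3, MAP2 and UCHL1. NEFL and STMN3 were under an FPKM of 1 in all IEC2 libraries and entered the test through IEC12 alone, which favours a rise. GAP43 and SNAP25 fell, and SNAP25, a protein of synaptic vesicle fusion, went from 55.5, 80.9 and 81.1 to 2.57, 3.88 and 3.55 (difference -4.08, SE 0.21, adjusted p = 3.4e-05). The defining neural genes TUBB3, DCX, NES and SOX3 were under an FPKM of 1 in every IEC12 library, with means of 0.106, 0.0238, 0.327 and 0. UCHL1 was at 871 to 926 in IEC12 and at 846 to 911 in AOC, so it does not separate neurons from the endothelial line here.

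Early embryonic genes gave a mixed picture. In the pluripotency list, OTX2, KLF5 and DNMT3B rose and ZIC2 and KLF4 fell, among 6 genes tested, with a median of 1.02. The calls for ZIC2 and KLF4 were both lost without IEC12 replicate B (adjusted p = 0.054 and 0.074). OTX2, a homeobox factor of the epiblast and of anterior tissues, was at 13.7, 14.4 and 11.3 in IEC2, 37.5 to 54.6 in IEC4 and 140.2, 147.8 and 160 in IEC12 (difference 3.42, SE 0.13, adjusted p = 1.7e-05). NANOG reached at most 1.07 and LIN28A at most 0.65 in an IEC12 library, and both were at or under 0.16 in IEC2. POU5F1 and SOX2 have no row under their symbols. Of the primitive streak and early mesoderm list, CDX4, MESP2 and WNT3 rose and PDGFRA fell among 5 tested, with a median of 0.94. The genes that rose were under an FPKM of 1 in all IEC2 libraries and entered the test through IEC12 alone. Over the 22 genes with a row the median was 0.01. EOMES and MIXL1 were listed at 0 in all 12 libraries.

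Among the genes of amnion and trophoblast, GATA3 and GATA2 rose and GABRP fell, of 5 tested, with a median of 0.29. Both GATA genes were under an FPKM of 1 in all IEC2 libraries and entered the test through IEC12 alone. GATA3, a factor shared by trophoblast, kidney duct and other tissues, went from 0.028, 0.026 and 0.035 to 7.66, 11.9 and 15.6 (difference 3.58, SE 0.26, adjusted p = 0.00011). CDX2 was listed at 0 in each library, and TFAP2C had a mean of 0.039 at day 12. In the endoderm list, the 4 tested genes APOE, FOXA1, CXCR4 and GATA6 rose, with a median difference of 1.04. Their IEC12 means were 5.53, 1.97, 2.61 and 1.82. Of the 16 genes with a row, 0 were at an FPKM of at least 1 in all 3 IEC2 libraries and 4 in all 3 IEC12 libraries. The filter thus took these 4 in through IEC12, which favours a rise, and the median over all 16 was 0.0. The call for CXCR4 was lost without IEC12 replicate B (adjusted p = 0.057) and the call for GATA6 without any of the 6 libraries in turn (adjusted p 0.053 to 0.098), which left 2 higher without IEC12 replicate B.

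Mesenchymal genes moved in both directions. Of 13 tested fibroblast and mesenchymal genes, 3 were higher (COL5A2, PRRX1 and MEOX2) and 5 lower (VIM, SPARC, PDGFRA, MEOX1 and SNAI2), beside 24.8% and 19.1% over all genes, with a median of -0.38. The number higher was 1 without IEC12 replicate B and 1 under equal FPKM totals, and the call for MEOX1 was lost without IEC12 replicate B, IEC2 replicate A or IEC2 replicate C (adjusted p 0.052 to 0.080). VIM, the intermediate filament of mesenchymal cells, was at 393, 418 and 425 in IEC2 and at 62.9, 97.6 and 113 in IEC12 (difference -2.21, SE 0.21, adjusted p = 0.00035). AOC had 647 to 855 of it. The matrix protein gene SPARC fell from 325, 331 and 417 to 53.6, 96.0 and 117. COL3A1 was at 66.0, 107 and 108 in IEC2 and at 75.9, 77.5 and 58.9 in IEC12, with no call, and COL1A1 did not exceed 0.38 in any of the 6 libraries. In the bone and cartilage list, 6 of 8 tested genes were lower, among them COL11A1, ALPL and HAPLN1, and COL9A1 was higher, with a median of -1.03.

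Of the 22 mural and smooth muscle genes with a row, 8 were at an FPKM of at least 1 in all 3 IEC2 libraries. In IEC12 it was 7 and in AOC 6. In the mural and smooth muscle list, ACTG2, an actin of smooth muscle, fell from 88.0, 71.5 and 87.4 to 7.65, 9.67 and 8.41 (difference -3.12, SE 0.15, adjusted p = 2.7e-05), MYL9 fell, and CALD1, TPM1 and KCNJ8 rose, of 9 tested, with a median of -0.02. MYL9 lost its call without IEC12 replicate B or IEC2 replicate B (adjusted p = 0.072 and 0.054). ACTA2, TAGLN, CNN1 and MYH11 did not exceed 0.51 in any of the 6 libraries. Of the cardiac list, 3 genes were tested (HAND2, ISL1 and MEF2C) and 0 were called by limma, with 0 at an unadjusted p below 0.05 and a median of 0.01. TNNT2 was listed at 0 in IEC12, and NKX2-5 had a mean of 0.00425. The skeletal muscle list had 2 tested genes with 0 called, 0 at an unadjusted p below 0.05 and a median of -0.40. In the blood list, GATA2 and PTPRC rose and SPI1 and RUNX1 fell, with a median of 0.19 over these 4 and PTPRC at 1.16 to 1.64 in IEC12. The call for RUNX1 was lost without IEC12 replicate B, IEC2 replicate B or IEC2 replicate C (adjusted p 0.053 to 0.060).

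Of the epithelial genes, CLDN6 and ESRP1 fell, of 3 tested, with a median of -0.87. Of the 19 epithelial genes with a row, 2 were at an FPKM of at least 1 in all 3 IEC12 libraries, CLDN6 among them. CLDN6, a tight junction gene, was at 37.1, 67.4 and 70.5 in IEC12. It had a difference of -0.87 that was -0.57 without IEC12 replicate A, and it lost its call without IEC12 replicate B or any IEC2 library (adjusted p 0.058 to 0.11). ESRP1, a splicing factor of epithelia, was at 8.83, 10.1 and 11.3 in IEC2 and at 0.49, 0.74 and 0.48 in IEC12. CDH1 did not exceed 0.42 and EPCAM 0.33 in IEC12, while the neural and mesenchymal cadherin CDH2 was at 16.8, 16.8 and 20.2, near its IEC2 level of 15.4, 17.3 and 24.8 (difference -0.07, SE 0.20, adjusted p = 0.81). The mesothelium list had GPM6A higher and WT1 lower, of 3 tested, with a median of -0.37. GPM6A, a membrane glycoprotein also known from neurons, was at 178 to 240 in IEC2 and at 402 to 489 in IEC12. In the list of intermediate mesoderm and kidney, GATA3, CDH6 and HOXD11 rose and WT1 fell, of 6 tested, with a median of 0.46. The call for HOXD11 was lost under equal FPKM totals (adjusted p = 0.35) and without replicate B or C of either group (adjusted p 0.093 to 0.15).

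**Figure D4:**
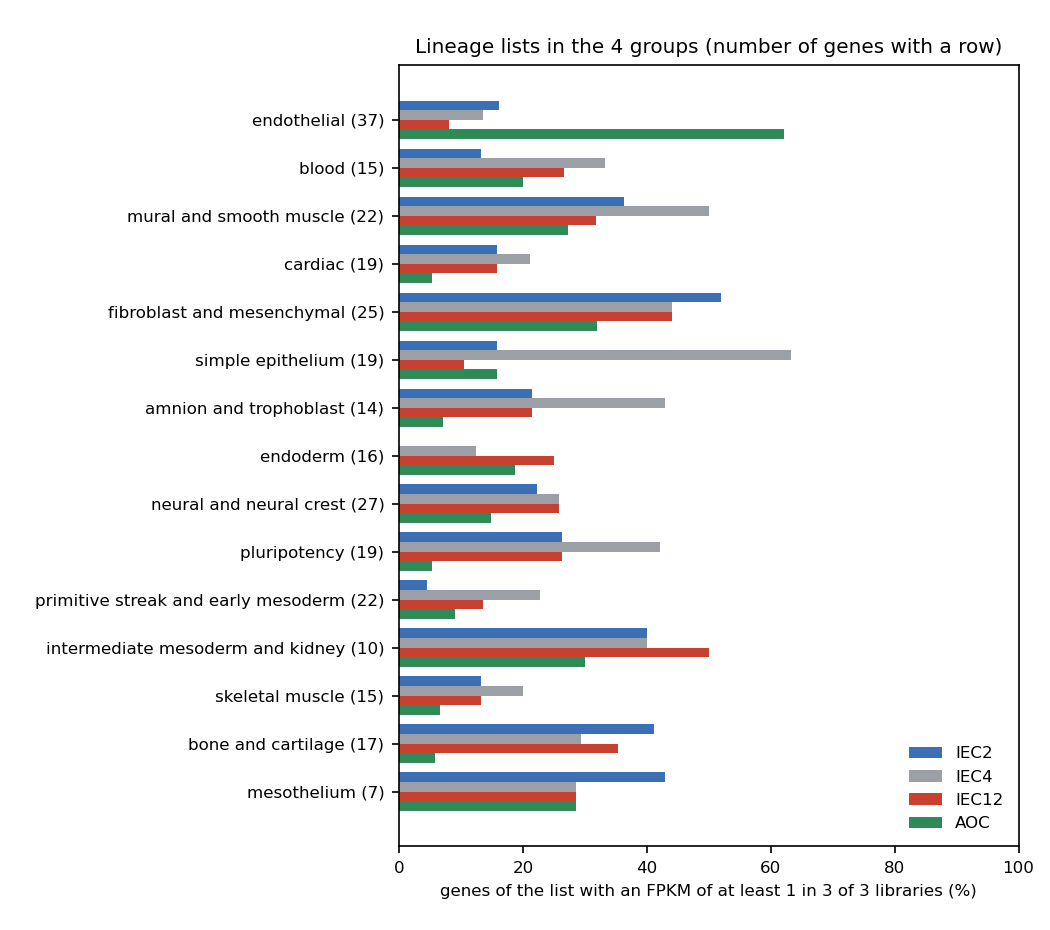
Share of each lineage list (horizontal axis, %) with an FPKM of at least 1 in 3 of 3 libraries, for IEC2 (blue), IEC4 (grey), IEC12 (red) and AOC (green), with the number of genes that have a row in brackets. The longest green bar is the endothelial list at 62.2%, where IEC12 has 8.11%, and the longest grey bar is the simple epithelium list at 63.2%, where IEC12 has 10.5%.

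BMP ligands act through receptor kinases and SMAD proteins, which switch on ID genes and their own inhibitors. The list read here mixes genes of the BMP and the TGF-beta response, and 14 of its 26 genes with a row were tested. Of these, 9 were higher and 3 lower, beside 24.8% and 19.1% over all genes, with a median of 1.89, and of 0.5 over the 26. Higher were ID2, ID3, the inhibitory SMAD6, SMAD9, the pseudoreceptor BAMBI, the antagonists FST and NOG, SKIL and HEY1. FST, which binds activin, went from 2.52, 2.49 and 3.25 to 37.7, 63.3 and 58.8 (difference 3.83, SE 0.22, adjusted p = 5.5e-05), and BAMBI from 3.66, 3.82 and 3.42 to 54.3, 49.4 and 27.6. ID1 was listed at or near 0 in every group. CCN1 and CCN2, which are known as targets of TGF-beta and YAP, were among the 3 that fell. ID2 and SMAD9 were under an FPKM of 1 in all IEC2 libraries and entered the test through IEC12 alone. This list's count of 9 and 3 was the same under each scaling and with each library left out over the same genes. It moved with the filter, to 14 higher and 3 lower with no filter and to 7 and 3 with a minimum FPKM of 5.

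WNT-related genes did not move together. Of 4 tested genes in the WNT response list, DKK1 and LEF1 rose and LGR5 fell, with a median of 0.65. Over its 16 genes with a row the median was 0.01. LEF1, a WNT transcription factor, was at 6.6, 11.8 and 10.9 in IEC2 and at 23.9, 32.3 and 30.2 in IEC12 (difference 1.49, SE 0.23, adjusted p = 0.0024). LGR5, a receptor for R-spondins, went from 9.19, 13.9 and 16.9 to 1.58, 1.68 and 1.24. AXIN2, a common feedback target, had a mean of 0.401 in IEC2 and 0.206 in IEC12 and was not tested. A list of 13 secreted WNT antagonists was put together after values of these data were known. In it, DKK1, SOSTDC1, SFRP1 and SOST rose and SFRP2 and DKK2 fell, of 7 tested. The median was 1.92 over the 7 and -0.02 over all 13. SFRP2 was at 41.7, 82.0 and 77.3 in IEC2 and at 1.73, 3.38 and 4.72 in IEC12 (difference -3.99, SE 0.35, adjusted p = 0.00025).

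HOX genes, which mark position along the body axis, were tested for 15 of 32 with a row. Of these, 10 were higher and 2 lower, with a median of 0.69, and of 0.11 over the 32. The largest rises were HOXB13, from 2.98, 7.43 and 3.85 to 10.4, 24.2 and 33.6 (difference 1.98, SE 0.45, adjusted p = 0.011), and HOXC8, from 0.52, 1.0 and 1.22 to 5.86, 7.17 and 5.17 (difference 1.89, SE 0.21, adjusted p = 0.0007). HOXC4 was among the 2 that fell, and 1 of the 2 was called without any IEC2 library or without IEC12 replicate A or B. The count of 10 fell to 3 without IEC12 replicate B, to 5 without IEC2 replicate B, to 6 without IEC12 replicate C or IEC2 replicate C, and to 4 under equal FPKM totals.

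The list with the lowest median was that of stress and immediate early genes, at -3.17, with 12 of 16 tested genes lower and HSPH1 higher. The list is mixed: some of its genes respond within a short time to growth signals or damaged proteins, and others, such as ASNS, CHAC1 and TRIB3, to amino acid shortage. EGR1 went from 16.8, 16.9 and 21.5 to 0.18, 0.14 and 0.49 (difference -3.93, SE 0.20, adjusted p = 3.3e-05). HSPA5, the main chaperone of the endoplasmic reticulum, fell from 4061, 3115 and 4396 to 323, 343 and 304 (difference -3.56, SE 0.16, adjusted p = 2.4e-05), and ATF3 from 141, 179 and 154 to 2.93, 5.03 and 6.05. FOS and JUN, which pair to form AP-1, fell as well. CDKN1A, a cell cycle inhibitor and target of p53, was not called, with means of 273 in IEC2 and 126 in IEC12.

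Since ASNS, CHAC1 and TRIB3 belong to the response to amino acid shortage, a list of 25 genes of that response and of serine synthesis was drawn up after the values were known and counts those same genes, so its count is a description. Of its 23 tested genes, 22 were lower and 0 higher (also 0 at an unadjusted p below 0.05), with a median of -2.85, and VLDLR was not called. Serine synthesis enzymes (PSAT1, PHGDH and PSPH), mitochondrial folate enzymes (SHMT2 and MTHFD2) and amino acid transporters (SLC7A11, SLC7A5, SLC3A2, SLC1A4 and SLC1A5) were among them. SLC1A5, a glutamine carrier, went from 214, 319 and 354 to 17.2, 32.8 and 34.9 (difference -3.37, SE 0.30, adjusted p = 0.00027). TRIB3 was at 15, 33.0 and 36.0 in IEC2 and at or under 0.17 in IEC12. The list's summed FPKM was 4100 to 5400 at day 4, beside 5190 to 5780 at day 2 and 541 to 848 at day 12. Of 19 cytosolic aminoacyl-tRNA synthetases, 12 were lower and 0 higher (1 higher without IEC12 replicate A), with a median of -1.01. They were led by GARS1 at 250.2, 269 and 265 in IEC2 and 20.1, 28.9 and 39.4 in IEC12.

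Of 17 tested chaperones and unfolded protein response genes of the endoplasmic reticulum, 5 were higher and 6 lower. This stands beside 24.8% and 19.1% over all genes, and the median was -0.25. HSPA5, HERPUD1 and DNAJC3 fell by 3.56, 3.11 and 2.01 on the log2 scale, while DNAJB9, DNAJB11, MANF, PDIA3 and CRELD2 rose, CRELD2 with no call when IEC12 replicate B or IEC2 replicate B was left out. Aryl hydrocarbon receptor targets were lower for 6 of 7 tested genes, with a median of -1.94. Beside CYP1A1, these were CYP1B1, NQO1, TIPARP, AHRR and AHR itself. AHR was at 14.9, 19.4 and 13.1 in IEC2 and at 4.21, 3.04 and 2.84 in IEC12. Of 10 tested YAP targets, 5 were lower (3 without IEC2 replicate B) and 0 higher, with a median of -0.64. The synthetase list and these 3 lists were also put together after values were known.

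Glycolysis and hypoxia genes fell in 17 of 22 tested cases and rose in 0 (also 0 at an unadjusted p below 0.05), with a median of -2.01. Glycolysis turns glucose into pyruvate, and hypoxia raises many of its genes. GAPDH was at 5246, 4935 and 4334 in IEC2 and at 534, 674 and 796 in IEC12 (difference -2.87, SE 0.18, adjusted p = 6.6e-05), near the 596 to 694 of AOC. ALDOA went from 1519, 1418 and 1271 to 76.5, 154 and 224, and ENO2 from 76.4, 97.6 and 108 to 2.38, 6.33 and 8.93. LDHA, which makes lactate, was not called, with means of 2610 and 2230. The median was -1.53 without IEC12 replicate A, which was the lowest IEC12 library for ALDOA, ENO2 and GAPDH, and the count lower was then 18. That count was 14 without IEC12 replicate B, IEC2 replicate B or IEC2 replicate C, and 20 under equal FPKM totals.

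Transcripts of mitochondrial DNA rose for all 12 genes with a row, with a median of 2.96. CYTB, a subunit of complex III, was at 390, 369 and 372 in IEC2 and at 6986, 4663 and 3289 in IEC12 (difference 3.65, SE 0.26, adjusted p = 0.00011). ATP6 was at 1390, 1814 and 1563 and at 20545, 12667 and 11182. IEC12 replicate A was the highest library for both, and without it the median was 2.61, again with 12 higher. The number higher was 10 without IEC12 replicate B or IEC2 replicate C. It was 11 without IEC2 replicate A and 11 under equal FPKM totals. Of the nuclear genes of oxidative phosphorylation, 11 of 18 were higher and 0 lower, with a median of 0.77. The count was 7 without IEC12 replicate B and 7 under equal FPKM totals. ATP5MC1 rose most, from 71.5, 50.6 and 46.5 to 252, 248 and 199.

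Cell cycle genes were higher in 16 of 22 tested cases and lower in 0 (also 0 at an unadjusted p below 0.05), with a median of 0.73. TYMS, which makes thymidylate for DNA, was at 53.6, 47.5 and 43.3 in IEC2 and at 154, 195 and 208 in IEC12 (difference 1.92, SE 0.15, adjusted p = 0.00017). The mitotic cyclin gene CCNB1 went from 49.3, 50.2 and 50.0 to 113, 114 and 103 (difference 1.13, SE 0.11, adjusted p = 0.00032). AURKB, PLK1 and MCM4 were not called, and MKI67 and PCNA have no row under their symbols. The count was 10 without IEC12 replicate B, 9 under equal FPKM totals and 10 with the mitochondrial genes left out as well, with 0 lower in each.

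Among interferon and antigen presentation genes, 5 were higher and 1 lower of 11 tested, with a median of 0.62. Over the 18 genes with a row it was 0.04. IFIT1, an interferon-induced RNA sensor, went from 0, 0.31 and 0.16 to 3.23, 3.73 and 3.85, and TAP1, a peptide transporter, fell from 6.01, 6.58 and 8.08 to 1.11, 2.42 and 2.77. The number higher was 3 without IEC12 replicate B, and the number lower was 2 without IEC12 replicate C. Housekeeping genes were not level between the days, with 4 higher and 8 lower of 18 and a median of -0.09. The ribosomal protein genes RPLP0 and RPL4 fell, as did GAPDH, GPI, PGK1, TFRC and ACTB among others, and HPRT1, PSMB2, PSMB4 and EMC7 rose. GAPDH, GPI and PGK1 are also in the glycolysis and hypoxia list and are counted in both. ACTB lost its call without IEC12 replicate B (adjusted p = 0.10) or any IEC2 library (0.088 to 0.14), and its difference of -1.25 was -0.75 without IEC12 replicate A. REEP5 was at means of 97.0 and 107 and YWHAZ at 144 and 141, both without a call. The number lower was 4 without IEC12 replicate B, 5 without IEC12 replicate C, IEC2 replicate A or IEC2 replicate B, and 5 under median-of-ratios scaling, and 7 were higher without IEC12 replicate A.

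A last list, of germ cell genes, was read after NANOS3 was seen among the rises past the study's limits. NANOS3, which protects primordial germ cells, was at 0.074, 0 and 0.14 in IEC2 and at 7.50, 21.7 and 24.4 in IEC12 (difference 3.99, SE 0.41, adjusted p = 0.00046). Of the other 8 genes with a row, KIT and DND1 were tested and not called, the median of the 3 was -0.07, and DDX4 and TFAP2C had means of 0.00836 and 0.039 at day 12.

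**Figure D5:**
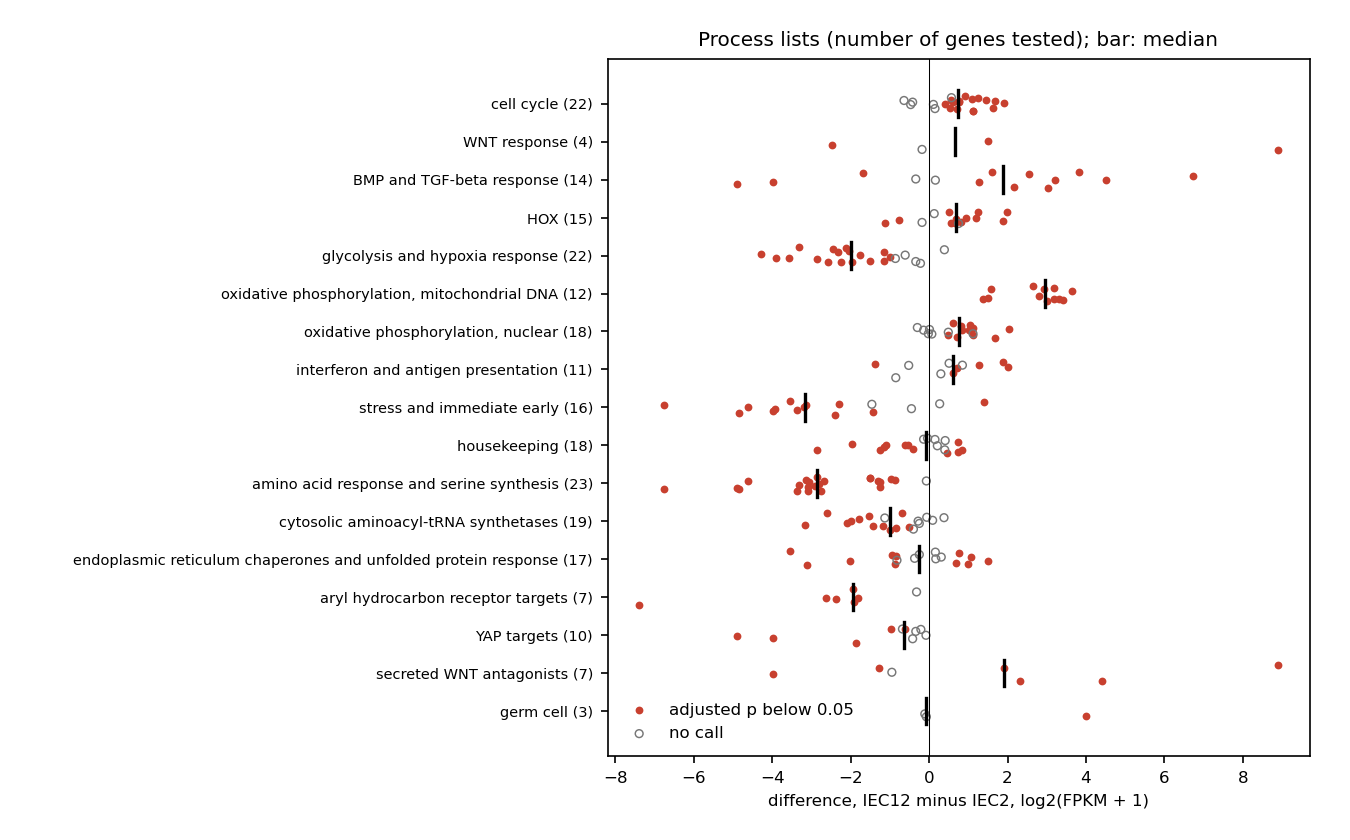
Log2 difference between IEC12 and IEC2 (horizontal axis) of each tested gene in the process lists and in the 7 lists added later, with the number tested in brackets. Red points passed an adjusted p of 0.05, open points did not, and black bars are medians, which run from -3.17 for stress and immediate early genes to 2.96 for the genes of mitochondrial DNA.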

How the data were processed

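RNA from 3 replicates per group was amplified by Smart-Seq2 and sequenced on a HiSeq 2500. The authors analysed the reads in Galaxy and deposited gene-level FPKM values for every library. The submitters' processing notes name Bowtie2 2.2.3, TopHat2 2.0.12, Cufflinks 2.2.1 and the build susScr11, with no role or order. Groups and replicates come from the sample titles.

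Genes that reached an FPKM of 1 or more in no fewer than 3 of the 6 libraries were tested on log2(FPKM + 1) with limma 3.58.1 (R 4.3.3), trended variance and Benjamini-Hochberg adjustment, with IEC12 and IEC2 only. The working of the test was checked on simulated data with the means and spread of IEC2 alone. The spread of the IEC12 libraries was not part of that check. Alternatives were another pseudocount (0.1), no filter or a minimum of 5, fits with 9 or 12 libraries, a replicate block, 3 other scalings, untrended variance, other limits, and each library left out over the same genes. A gene name table gave symbols for 13998 of 19681 identifiers and RefSeq gave coordinates for Sscrofa11.1, matched by symbol. Of 562 names in the 25 lists fixed first, 95 had no row.

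The comparison and the lists were chosen with earlier results of these data known, and 7 lists after the present values were seen. The genes named are the 15 largest rises and falls past the study's limits with a symbol and no overlap, up to 6 called members of each list with the largest difference, and fixed marker genes. Members named beyond these were chosen after their values were seen. Some genes that this rule takes in are not reported here. Values listed at 0 may be failed estimates. No sequences were used.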

Additional observations from a re-analysis of the deposited data

How the results depend on the processing

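Of the 4241 genes at an adjusted p below 0.05, 2413 passed 0.01 and 2170 had a log2 difference over 1. Leaving out 1 library at a time gave 2695 to 4318 genes, and 69 to 131 genes past the study's limits in place of 123. A pseudocount of 0.1 gave 259 genes past those limits (160 higher and 99 lower) and a log2 limit of 2 gave 351. Under the other alternatives both counts stayed within 1.5 times the value reported. In the endothelial list, 1 member was higher under every alternative.

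Replicate letters are shared between the groups. For libraries that share a letter, the departures from the mean of the group correlated at 0.26 for A, 0.03 for B and 0.22 for C over 9657 genes. Whether the letters mark a shared factor was not tested. The sources do not say that they mark a shared culture, so the main fit did not pair the libraries. With the letter as a replicate block, 4621 genes passed the adjusted p (2464 higher and 2157 lower) and 121 the study's limits.

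Of 153 named genes called, 135 kept their call in each of the 16 fits that tested them and 0 changed direction. The 18 that lost it at least once were ACTB, AJUBA, CLDN6, COX5B, CRELD2, CRIM1, CXCR4, GATA6, HOXA11, HOXD11, HOXD9, IFI6, ISG15, KLF4, MEOX1, MYL9, RUNX1 and ZIC2. The cause was not tested. List medians that changed sign were those of the cardiac list (0.01, and -0.22 under equal FPKM totals) and, without IEC12 replicate A, of the housekeeping (0.04), skeletal muscle (0.01) and germ cell (0.21) lists, and of the mural list (-0.02, with 0.01 without IEC12 replicate B and 0.03 without IEC12 replicate C). With the mitochondrial genes left out, their list had no value. With 3 libraries a group and no fragment counts, small differences of low genes could not be resolved.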

Other observations

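Genes that were low at both days could still have been high between them, which the net comparison does not show. In the simple epithelium list, 3 of 19 genes were at an FPKM of at least 1 in all libraries of IEC2, 12 in IEC4 and 2 in IEC12. KRT8 had a mean of 15.6 at day 2, 494 at day 4 and 9.87 at day 12, and CLDN4 of 0.00732, 25.3 and 0.0187. GABRP, a gene of amnion, had means of 3.35, 114 and 0.656, and HAND1, a factor of extraembryonic mesoderm and heart, of 0, 7.65 and 0.605. MYC, a growth regulator, had means of 0.0435, 9.85 and 0.0535, beside 61.1 in AOC. These genes were chosen after their values were seen, and the values at day 4 were not tested here.

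TXNIP and ARRDC4, arrestin genes induced by glucose, were lowest at day 4, with means of 181, 1.83 and 33.2 and of 37.5, 1.44 and 13.2 at days 2, 4 and 12. KIT, the receptor for stem cell factor, kept a mean of 58.1, 74.0 and 54.7 at the same days and 34.9 in AOC.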
